A study of Drosophila melanogaster with 2 samples.

Results

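Trl, Clamp and psq encode proteins that bind GA repeats, and lolal encodes a BTB protein that partners GAGA factor, the product of Trl. Together these 4 genes held 22 of the 9295 peaks of a CG15336-eGFP fusion protein in Drosophila melanogaster prepupae. Trl had 7 peaks, psq had 13, lolal had 2 and Clamp had 0. The genes were picked by the function of their products with earlier results of these data known. Their peaks were selected on the authors' reproducibility threshold and on position, with the summit from 2000 bp upstream of the first transcript start to the end of the gene. The numbers and signals of these peaks are therefore a description, and no test was made on them.

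Chromatin bound by the fusion was recovered with an antibody against GFP and sequenced (ChIP-seq). There was 1 group with 2 biological replicates, whole prepupae of a strain carrying the CG15336-eGFP insertion, aged 2 days per the labels. Both replicates carried the same transgene and came from the same donor strain, and the sex of the animals was not collected. Whole animals mix all tissues, so a peak cannot be assigned to a cell type, and neither the promoter of the transgene nor the number of animals pooled is given in the sources used here. No control library and no animals without the transgene were analysed here. Replicate 1 gave 6678 and replicate 2 gave 8219 thresholded peaks, and the conservative list of 9295 peaks was made from both. The files hold peaks and no read totals, so the depth is not known. CG15336 itself had 0 conservative peaks in the same kind of window.

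GAGA factor, the product of Trl (Trithorax-like), is a zinc finger protein that binds GAGAG, helps to keep nucleosomes off promoters and acts with both Trithorax and Polycomb group proteins. Pipsqueak, the product of psq, binds GA repeats through its Psq motifs and is found at Polycomb response elements, the sequences that hold Polycomb proteins. The product of lolal, also called Batman, consists of little more than a BTB domain and binds GAGA factor and Polyhomeotic. CLAMP is a zinc finger protein that binds GA repeats across the genome and brings the dosage compensation complex to the male X chromosome.

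In the conservative list 3 of the 4 genes had a peak in their window, and the same 3 had one in either replicate alone. Of 13945 protein-coding genes on the chromosome arms, 33.2% had a peak in the same window in the conservative list, 26.6% in replicate 1 and 31.1% in replicate 2. At these 3 genes a transcript start had a conservative summit no more than 500 bp away, which was true of 21.4% of coding genes. These 3 genes have 4 or 5 different starts each, and a gene with more starts has more places for such a summit. Long genes have more room for peaks, and these shares over all coding genes are not matched for length. The psq window spans 61.4 kb, the Trl window 15.1 kb, the lolal window 6.1 kb and the Clamp window 5.42 kb, against a median of 4.17 kb over coding genes. Per 10 kb of window the counts were 4.63 at Trl, 3.28 at lolal, 2.12 at psq and 0 at Clamp.

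Among coding genes with windows within 25% of the length of the Trl window, the median was 1 peak, and 14 of 833 genes, Trl included, had as many as Trl. The median was 4 peaks for the 239 genes of about the length of psq, and 21 of them, psq included, had at least as many as psq. For lolal the median was 0 peaks over 2863 genes, and 354 of these had at least 2. By replicate, Trl had 4 peaks in replicate 1, where 60 of the 833 genes had as many, and 6 in replicate 2, where 24 did. For psq the counts were 12 and 13 peaks, reached by 14 and 16 of the 239 genes. These psq counts include weak calls that overlap or adjoin a stronger one. Their signals were 35.2, 18.5 and 31.6 in replicate 1, and 6.71 and 4.87 in replicate 2. Such calls were not merged in these counts, at psq or at the other genes. The standing of Trl was thus less marked in replicate 1 than in the conservative list. Of the genes of about the length of Trl, 59.9% had a conservative peak. The share was 69.9% at the length of psq, 36.6% at that of lolal and 32.5% at that of Clamp. Having a peak was thus the more common case at the lengths of Trl and psq.

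**Figure D1:**
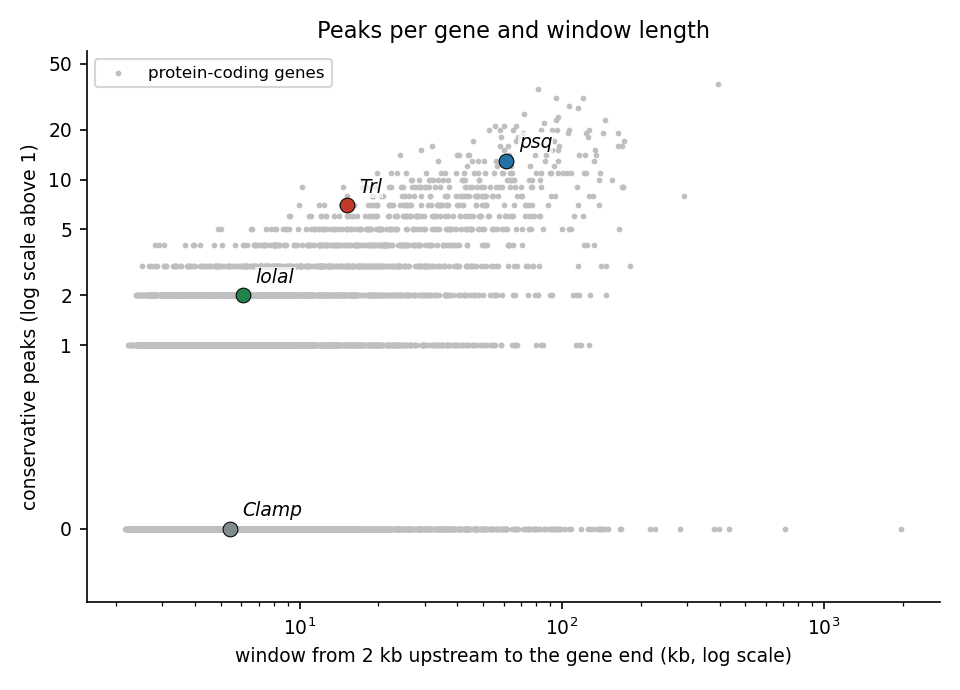
Conservative peaks per gene (vertical axis, log scale above 1) against the length of the window from 2000 bp upstream to the gene end in kb (horizontal axis, log scale). Grey points are protein-coding genes and coloured points the 4 genes. Trl (7 peaks) lies near the top of the cloud at its length and psq (13) in the upper part at its length. The lolal point (2) lies within the cloud and Clamp at 0.

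Trl is the gene of GAGA factor and carried the strongest peak of the 4 genes. It lies on the minus strand at chr3L:14747929-14761049 of dm6 and has 10 annotated transcripts from 4 different starts. The peaks are numbered here along the gene from its first start. Trl-2 (chr3L:14759323-14759715) had a signal of 1091 in replicate 1, where it ranked 3, and of 907 in replicate 2, where it ranked 19. Its summit lay 1530 bp downstream of the first start, in an intron of the single transcript that begins there. The conservative signal of 1999 ranked 8 among 9295 peaks. Signals are the authors' own, in a unit they do not name, and ranks are within each list.

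The other Trl peaks lay close to starts and introns of the first 6 kb and were weaker. Trl-1, 657 bp downstream of the first start, had a signal of 118 (rank 1855) in replicate 1 and 117 (rank 2123) in replicate 2. Trl-5, in a 5′ untranslated exon of all 10 transcripts and 130 bp past the last of the starts, had 224 (rank 613) and 233 (rank 709). Trl-6, 1137 bp past that start in an intron of all 10 transcripts, had 200 (rank 772) and 131 (rank 1780). These 3 peaks and Trl-2 were thus present in both replicates. In the conservative list Trl-5, with 455, was the next highest after Trl-2.

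The remaining 3 Trl peaks were near the lower end of the conservative list. Trl-3 had a conservative signal of 61.6 and lay 87 bp upstream of the start used by 7 of the 10 transcripts. Trl-4 had 68.5 and lay 7 bp past another start, in a 5′ untranslated exon of 3 transcripts and an intron of 6. Their intervals overlap each other, and both overlapped the same replicate 2 peak (signal 67.1, rank 4715). No thresholded peak of replicate 1 overlapped either, and the best peak there reached a −log10 of the irreproducible discovery rate (IDR) of 0.814. Trl-7, in an intron, had a conservative signal of 83.4 and overlapped no thresholded peak of either replicate. Merging overlapping intervals gives 6 regions at Trl in place of 7 peaks. Replicate 2 also had a peak 4581 bp downstream of the first start (signal 54.6, rank 6016) that overlapped no conservative peak.

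Trl shares its locus with CG42507, a coding gene annotated on the same strand at chr3L:14747929-14757962. The summits of Trl-4, Trl-5, Trl-6 and Trl-7 lay in CG42507 as well, and the start of CG42507 was 87 bp from the summit of Trl-3. Of the 4 Trl starts, 3 had a conservative summit within 500 bp, and so had 20.5% of the 19607 different starts of coding genes. In replicate 1 only the start near Trl-5 had one, and in replicate 2 the same 3 starts had one as in the conservative list.

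The reference sequence of 6 of the 7 Trl summits is shown because GAGA factor binds GAGAG and the gene is rich in it. Trl-4, whose interval overlaps Trl-3 and whose nearest match was 321 bp away, is not shown. The Trl window held 50 matches of GAGAG on either strand, overlapping matches included, or 3.31 per kb. The median over coding genes was 1.29 per kb, and 3.7% of coding genes had more than Trl. None of the 7 Trl summit windows of 101 bp held a match, and 12.5% of all conservative summit windows did. The sequences are from the plus strand of dm6, in the RefSeq copy of Release 6, centred on the summit, with GAGAG or its complement in capitals. Trl-3 and Trl-7 are shown over 201 bp, where the match nearest to the summit comes into view.
Trl-1, chr3L:14760342-14760442: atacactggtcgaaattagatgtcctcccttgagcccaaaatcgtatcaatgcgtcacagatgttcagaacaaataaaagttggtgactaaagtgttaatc
Trl-2, chr3L:14759469-14759569: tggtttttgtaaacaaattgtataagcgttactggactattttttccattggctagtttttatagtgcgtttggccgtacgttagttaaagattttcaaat
Trl-5, chr3L:14757156-14757256: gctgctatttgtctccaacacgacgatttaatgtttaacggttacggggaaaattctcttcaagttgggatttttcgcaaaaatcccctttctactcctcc
Trl-6, chr3L:14756149-14756249: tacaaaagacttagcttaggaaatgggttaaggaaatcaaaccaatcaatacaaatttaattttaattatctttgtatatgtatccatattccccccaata
Trl-3, chr3L:14757949-14758149: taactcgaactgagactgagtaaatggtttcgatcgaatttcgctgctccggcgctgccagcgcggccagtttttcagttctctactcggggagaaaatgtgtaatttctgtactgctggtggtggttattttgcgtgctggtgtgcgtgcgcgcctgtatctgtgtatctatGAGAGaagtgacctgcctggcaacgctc
Trl-7, chr3L:14755358-14755558: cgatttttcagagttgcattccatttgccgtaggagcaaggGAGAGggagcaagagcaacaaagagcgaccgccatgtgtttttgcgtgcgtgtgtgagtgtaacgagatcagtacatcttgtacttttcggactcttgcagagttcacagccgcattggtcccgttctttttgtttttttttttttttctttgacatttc

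At that low share over all peaks, 0 of 7 is not read as a feature of Trl. The match nearest to the summit of Trl-2 lay 190 bp away, and over the 7 Trl peaks this distance ran from 57 to 321 bp with a median of 175 bp. The median over all conservative peaks was 212 bp. Taken over the whole peak interval, 3 of the 7 Trl peaks held a match (Trl-2, Trl-3 and Trl-7), as did 3718 of all 9295 conservative peaks.

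Clamp had no peak in any of the 4 thresholded lists. It lies on the minus strand at chr2L:22165720-22169143, with 2 transcripts from 1 start. The ranked list behind the conservative one, which also holds peaks below the threshold, had 2 entries in its window. The summit of the better one stood 84 bp upstream of the start, with a signal of 31.5 and a −log10 IDR of 1.2. The authors' lists begin at 2.0, an IDR of 0.01. The best entries of the replicates lay 570 and 451 bp downstream of the start, with signals of 36.2 and 19.0 and −log10 IDR of 1.72 and 0.89.

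The 101 bp at the better of these sub-threshold summits held no GAGAG, and the whole Clamp window held 5 matches, or 0.922 per kb, a density that 71.4% of coding genes exceeded.
Clamp, chr2L:22169177-22169277: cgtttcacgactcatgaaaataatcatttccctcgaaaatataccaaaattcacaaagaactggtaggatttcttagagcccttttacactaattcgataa

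The lack of peaks was shared by the end of the arm on which Clamp lies. The last conservative summit of 2L stood at position 21863628, which is 302 kb before Clamp on an arm of 23513712 bp, and no conservative summit lay beyond the gene. The windows of 43 coding genes, Clamp among them, lay wholly past that summit. In that stretch replicate 1 had 0 thresholded peaks, replicate 2 had 1 and the less strict list had 2, the nearest being 16.8 kb from Clamp. The ranked list held 44 entries there.

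The gene psq had the most peaks of the 4 genes, spread over introns of the first 46 kb. It lies on the plus strand at chr2R:10557888-10617280, with 15 transcripts from 5 different starts. The highest peak, psq-4 (chr2R:10564258-10564551), had a signal of 192 (rank 840) in replicate 1 and 225 (rank 751) in replicate 2. It lay 6539 bp downstream of the first start, in an intron. The next, psq-12, had 160 (rank 1147) and 173 (rank 1174) and lay 43723 bp downstream of the first start, in an intron of all 15 transcripts. The third, psq-6, had 152 (rank 1258) and 129 (rank 1823) and lay 101 bp past a start. Its summit was in a 5′ untranslated exon of the 1 transcript that begins there and in an intron of 6 others.

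All 3 were present in both replicates, and no psq peak came near the signal of the highest Trl peak. The 13 conservative signals at psq ran from 71.6 to 409 with a median of 175. Of the 13 peaks, 8 were matched in both replicates, 3 in 1 replicate and 2 in none. The 5 not found in both were psq-5, psq-7, psq-9, psq-10 and psq-13. Of these psq-5 was the strongest, with a signal of 111 (rank 2040) in replicate 1 and, below the threshold in replicate 2, a signal of 71.4 at a −log10 IDR of 1.71. Conversely, replicate 2 had a peak 1028 bp downstream of the first start (signal 49.8, rank 6616) that is absent from the conservative list and present in the less strict one. The less strict list had 16 peaks at psq.

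Of the 5 psq starts, 4 had a conservative summit within 500 bp, 3 of them in replicate 1 and 4 in replicate 2. Of the different starts of all coding genes, 20.5% had a conservative summit so near. Neighbouring psq starts shared psq-6 as their nearest summit, so the starts are not independent. The first start, used by 6 transcripts, had psq-1 134 bp upstream, with a signal of 76.0 in replicate 1 and 72.5 in replicate 2. This was the only 1 of the 22 peaks that lay upstream of its gene. The start with no summit nearby, used by 5 transcripts, had its nearest summit 1347 bp upstream, at psq-8. The stretch from psq-8 to psq-9, 14410 bp without a conservative summit, was the widest gap between neighbouring peaks at psq, where the median gap was 2271.5 bp.

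All 4 of the summit windows with GAGAG among the 22 were at psq. They were at psq-4 with 4 matches, psq-6 with 3, psq-7 with 2 and psq-13 with 1. The first 2 of these held a GA repeat of at least 8 bp, with the longest alternating runs of G and A measuring 11 bp at psq-4 and 9 bp at psq-6. Over the 22 peaks the share with GAGAG was 4, against 12.5% of all conservative summit windows, and with the GAGAGAGA repeat 2, against 1.56%. At these small numbers the counts describe only these peaks. The psq window as a whole held 127 matches, or 2.07 per kb, and 17.6% of coding genes had more per kb. The 2 GAGAG windows with 2 or fewer matches belonged to weaker peaks. The replicate 2 signal was 46.8 at psq-7, with no thresholded peak in replicate 1, and psq-13 had no thresholded peak in either replicate.

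The gene lolal had 2 peaks, both in introns and both present in each replicate. It lies on the minus strand at chr2R:18154095-18158192, with 8 transcripts from 5 starts. The higher, lolal-2 (chr2R:18156621-18156818), had a signal of 146 (rank 1335) in replicate 1 and 140 (rank 1599) in replicate 2 and lay 166 bp downstream of a start. The other, lolal-1, had 68.9 (rank 3839) and 77.2 (rank 3919) and lay 269 bp downstream of a start. Of the 5 starts, 4 had a summit within 500 bp, both in the conservative list and in either replicate. The start without one is the first, 603 bp from lolal-1. The same 2 peaks served all 4 starts, and 20.5% of the different starts of coding genes had a conservative summit so near. Neither summit window held GAGAG, and the nearest matches were 168 and 133 bp away. The window of lolal reaches into CG10914, a coding gene on the other strand, and both peaks also fall in the window of CG10914.

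**Figure D2:**
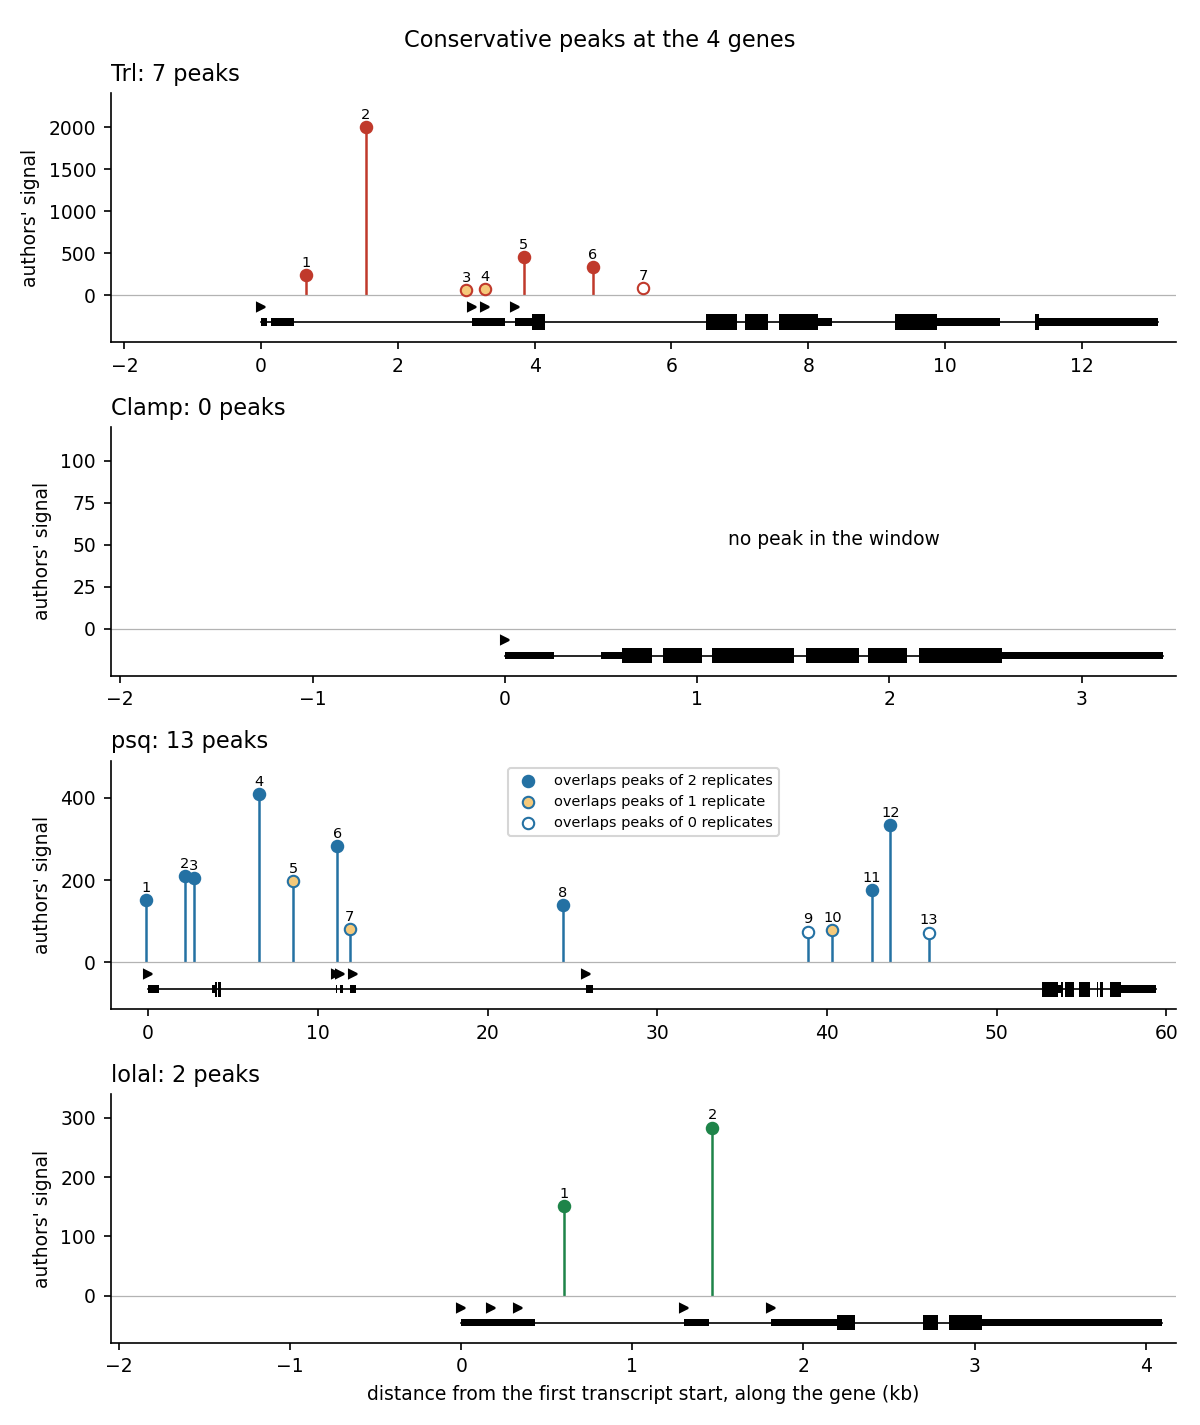
Conservative peaks at each gene, with the authors' signal (vertical axis, scaled per gene) against the distance of the summit from the first transcript start in kb along the gene (horizontal axis). Filled points overlap thresholded peaks of both replicates, amber points 1 and open points none; below each plot thick bars are coding sequence, thin bars untranslated exons and arrowheads transcript starts. The peaks of Trl stand in its first 6 kb with the second at 1999, those of psq spread over 46 kb, and Clamp has none.

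Taking the 22 peaks together, 18 summits lay in introns of every transcript of the gene that spans them, 3 in 5′ untranslated regions and 1 upstream of its gene. Within 500 bp of a start of the same gene lay 8. The shares of all conservative peaks in these places are not given here, so these counts are not read as a feature of the 22. The median conservative signal was 186, against 123 over the whole list, and 15 of the 22 were above 123. In the top 10% of the list were 3 peaks (Trl-2, Trl-5 and psq-4), and 7 were below 84.7, the 25th percentile. All 7 of these weaker peaks were at Trl or psq.

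Both replicates held 14 of the 22 peaks (Trl 4, psq 8 and lolal 2), 5 were matched in 1 replicate and 3 in none, where 58.8% of all conservative peaks were matched in both. Of the 14, 13 had a better rank in replicate 1, and the exception was psq-4. Over all 5465 matched peaks 54.3% had a better rank in replicate 1. The lists differ in length, with 6678 peaks in replicate 1 and 8219 in replicate 2, so a better rank need not mean a higher signal. Of the 13, Trl-5, psq-12 and lolal-1 had the higher signal in replicate 2 and the rest in replicate 1. The conservative signal was close to the sum of the replicate signals. At the 14 peaks that sum was 0.969 to 1.06 times the conservative signal, and over all 5465 matched peaks the median was 1.00. The summits of the 14 peaks lay a median of 11 bp from the conservative summit in replicate 1 and 7 bp in replicate 2, against 15 and 14 bp over all matched peaks.

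**Figure D3:**
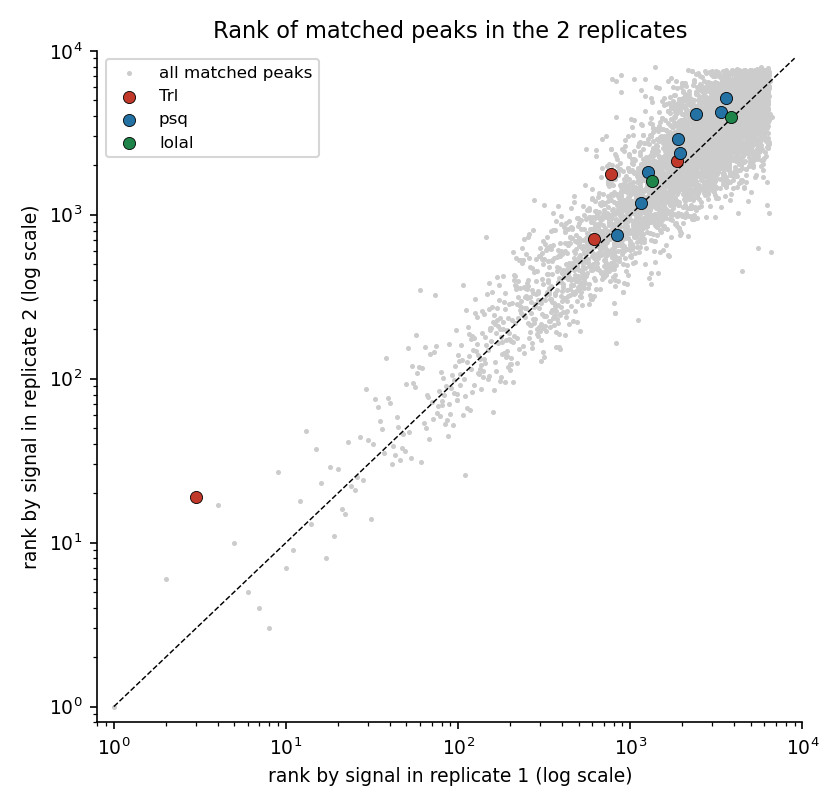
Rank by signal in replicate 1 (horizontal axis) against rank in replicate 2 (vertical axis), both on log scales, for conservative peaks matched in both replicates. Grey points are all 5465 matched peaks, coloured points the 14 at Trl, psq and lolal, and the dashed line marks equal rank: Trl-2 stands apart at ranks 3 and 19, and 13 of the 14 lie above the line.

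The authors' threshold cut the ranked peaks of these genes as follows. Just inside it were psq-13, with a −log10 IDR of 2.03 and a signal of 71.6, and Trl-7, with 2.11 and 83.4. Just outside it the best entries had values of 1.6 at psq, 1.59 at Trl, 1.56 at lolal and 1.2 at Clamp, with signals of 45.2, 48.0, 33.1 and 31.5. Below the threshold the conservative ranked list held 43 further entries at psq, 8 at Trl, 5 at lolal and 2 at Clamp. With the IDR limited to 0.001, 17 of the 22 peaks were left.

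The GC content at the summit was below that of its flanks at 14 of the 22 peaks, against 77.0% of all conservative peaks. The flanks are windows of the same length centred 300 bp to each side. The median difference was -6.44 percentage points over the 22 peaks and -12.9 over all, with summit GC at a median of 38.6% and 31.7%. The lowest summit GC, 19.8%, was at psq-2 and psq-12, and the highest, 58.4%, at psq-4. At psq-4 the flanks had 32.7%, so GC rose by 25.7 points at the summit, where the window also holds GA and CA repeats. At psq-12 the flanks had 52.5% and GC fell by 32.7 points. At Trl-2 the values were 31.7% at the summit and 41.6% in the flanks, and the lolal summits were above their flanks by 4.95 points at lolal-1 and 0.495 at lolal-2. The psq peaks thus differed widely among themselves, and 3 of the 4 with GAGAG had a summit GC above the flanks, psq-7 by only 0.99 points. The bases of a GAGAG match count toward the GC of their window, so these 2 measures are not independent.

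**Figure D4:**
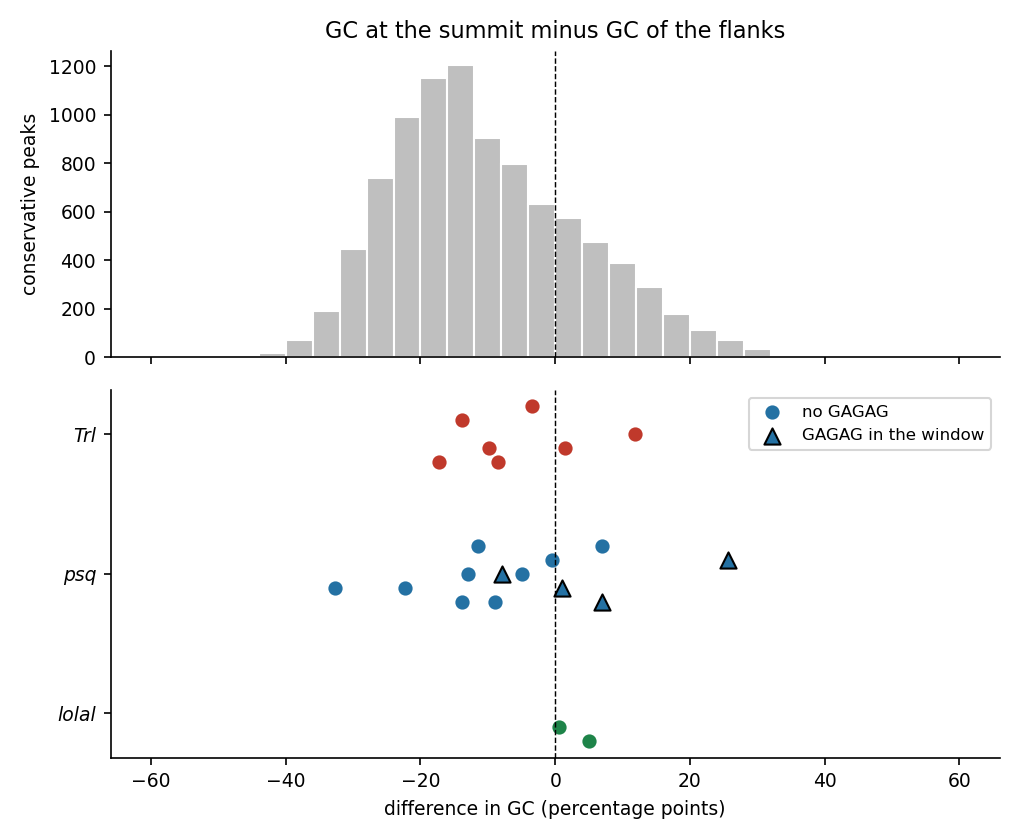
GC content in 101 bp at the summit minus the mean of the flanks, in percentage points (horizontal axis). The upper plot counts all conservative peaks in steps of 4 points, and the lower plot shows the 22 peaks by gene (points are spread vertically only to keep them apart), with triangles for windows that hold GAGAG: psq-4 lies at 25.7 and psq-12 at -32.7.

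Other motifs were found at few of these summits. CACACACA was in 1 window, psq-4, against 2.3% of all conservative windows, and runs of 8 A were in 2, psq-11 and psq-12, against 12.6%. TATCGATA, the core of the DNA replication-related element, was in 0 of the 22 and in 27 of all 9295. All motifs were searched on both strands. GAGAG matches include those inside GAGAGAGA.

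Other genes of the same families and pathways were counted in the same windows, from lists drawn up with earlier results of these data known. Of 13 BTB genes of the tramtrack group, to which GAGA factor, Pipsqueak and Batman belong, 12 had a conservative peak (11 in replicate 1 and 12 in replicate 2). Their windows are long, with a median of 55.4 kb, and 70.9% of coding genes with windows within 25% of that length had a peak. The highest signals were at mod(mdg4), a chromatin and insulator protein gene (272 in replicate 1 and 376 in replicate 2), br, the Broad gene of the ecdysone response (294 and 273), and ken (313 and 235). The largest number was at mamo, with 23 conservative peaks, and rib had 0. Of 8 genes for proteins with Psq motifs, 5 had a conservative peak (4 in replicate 1 and 5 in replicate 2). They were led by cag (251 and 196), bab1 (196 and 240) and Eip93F (148 and 156). Around the median window length of this list 68.8% of coding genes had a peak. Of these 8 genes, 4 are also on the list of BTB genes (bab1, bab2, rib and Tkr).

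The partners of these proteins differed in count. Of 13 genes for chromatin and promoter pausing partners of GAGA factor, 7 had a conservative peak (5 in replicate 1 and 6 in replicate 2). They were led by the insulator gene Cp190 (447 and 377), TH1, a subunit of the pausing factor NELF (154 and 138), and dre4, a subunit of the histone chaperone FACT (70.5 and 125). Around the median window of these genes, 5.41 kb, 32.4% of coding genes had a peak. Another partner on the list, Nelf-B, was not matched to the annotation. None of the 7 dosage compensation genes that act with CLAMP (msl-1, msl-2, msl-3, mle, mof, roX1 and roX2) had a conservative peak, and mle had 1 in replicate 2 alone. Their median window is 5.89 kb, a length around which 35.3% of coding genes had a peak. Of 9 other genes for proteins that bind Polycomb response elements, 4 had a conservative peak (5 in replicate 1 and 5 in replicate 2). The highest signals were at phol (616 and 685), Adf1 (567 and 434) and Dsp1 (354 and 270). Around their median window, 9.01 kb, the share over coding genes was 48.9%. Of 3 other early pioneer factor genes, only grh had a conservative peak, with 12 and a highest signal of 132 in replicate 1 and 192 in replicate 2. The window of grh is 43.7 kb, and this gene is also on the Polycomb response element list. Around the median window of the 3 genes, 19.2 kb, 64.3% of coding genes had a peak. The genes zld and opa had 0, although zld had 1 peak in replicate 1 (signal 45.3).

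**Figure D5:**
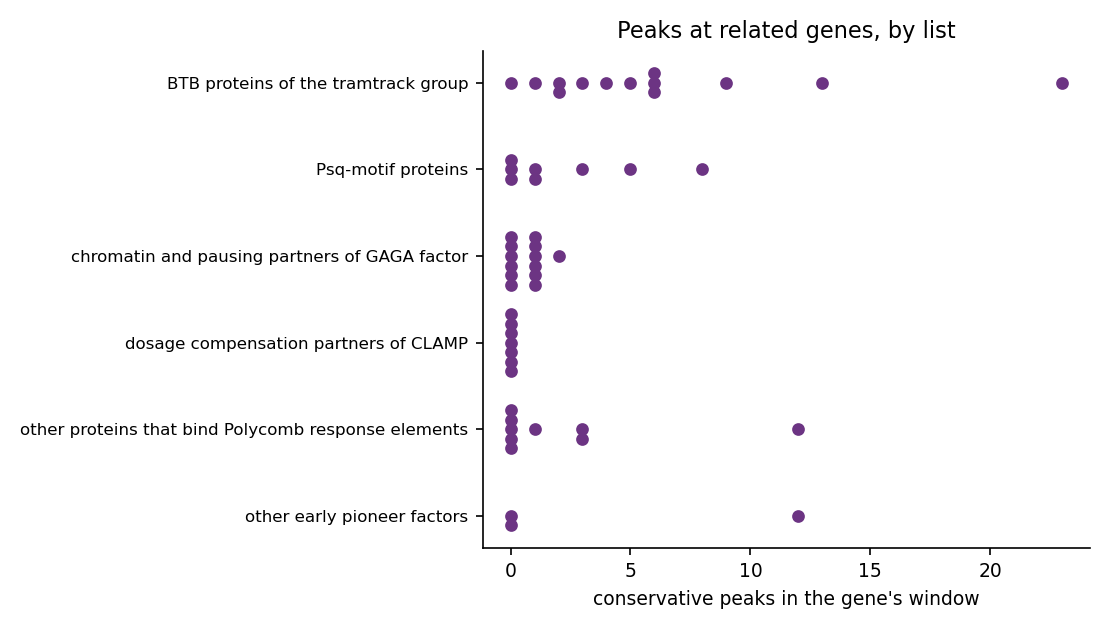
Number of conservative peaks in the window of each gene (horizontal axis) for 6 lists of related genes (rows), 1 point per gene, with points of equal value spread vertically. The tramtrack group reaches 23 peaks at mamo, and the 7 dosage compensation genes are all at 0.

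The genes most like the members were found by distance over 4 values, the number of peaks and the highest signal in each of the 2 replicates, over all coding genes. Window length was not among these values. The genes nearest to Trl were Gprk2, CG31145 and CG5953, each with 4 peaks in replicate 1 and a highest signal there of 1029, 859 and 574. Their windows are 54.6, 65.9 and 26.8 kb, all longer than the 15.1 kb of Trl. Nearest to psq were CG12535, with 12 and 13 peaks and highest signals of 197 and 191, then fru and spri. The windows of these 3 genes are 63.0, 133 and 97.4 kb, against 61.4 kb for psq. Nearest to lolal was CG10914 at a distance of 0, because it shares the same peaks, followed by CG17746 and CG13004. Clamp shared its 0 peaks in both replicates with 9205 other coding genes.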

How the data were processed

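Chromatin of whole prepupae was sheared by sonication to 200 to 800 bp, per the labels. The authors deposited peak lists on dm6 for each replicate and for both together, per the listings that accompany them. Aligner, peak caller and versions: not given in the sources used here. Each deposited peak has a signal, on a scale not stated, and a score in the authors' ranked lists was read from its values as the −log10 of a global IDR. Each thresholded peak had at least 2.0. The 16 columns of per-replicate values in the pooled ranked lists carry no sample name and were not used.

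The members and lists were chosen with earlier results of these data known. Genes came from Ensembl release 115 and sequence from the RefSeq copy of Release 6, whose arms reach past every conservative peak. A peak belonged to a gene by its summit. Replicate peaks were matched by overlap of at least 1 bp, taking the nearest summit. Motifs and GC were read in 50 bp to each side of the summit. Named genes were the 4 members, up to 3 genes per list with the highest conservative signal, and the 3 genes nearest to each member in log2(1 + value), each value divided by its SD. Every other gene named from a list falls outside this rule and was named after its values were seen. No test across genes was made. Both replicates form 1 group, and their spread may be partly technical. The alternatives used the less strict list, either replicate by itself, a stricter IDR, interval overlap, merged peaks and other windows. Python 3.11.15 with numpy 2.4.6, pandas 2.3.3 and matplotlib 3.10.9 was used, and the code was tested on planted peaks and sequences.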

Additional observations from a re-analysis of the deposited data

How the results depend on the processing

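An alternative count was taken as the same within 1.5 times the reported count. A share, rank or GC difference was taken as the same if it differed by no more than the SD between the replicates. Of 71 alternative values, 59 stayed within these limits, 12 moved and 0 changed direction. Counts, ranks and shares have no sign to change, so the 0 bears on the GC difference alone. The number of peaks at Trl was 4 to 6 with 1 replicate left out, against 7 in the conservative list, and the lower value is that of replicate 1 alone. Clamp stayed at 0 and 3 of the 4 genes kept a peak under each alternative run. Summit windows with GAGAG were 4 of 22, against 12.5% of all. At an IDR of 0.001 or less they were 2 of 17 (11.8%, against 9.68% of all), without replicate 1 they were 3 of 21 (14.3%, against 15.1%) and without replicate 2 they were 2 of 18 (11.1%, against 10.5%). With 100 bp to each side they were 6 of 22 (27.3%, against 25.6%). The member share was thus below that of all peaks without replicate 1 and above it in the other settings. The median GC difference of -6.44 points became -3.36 with 100 bp to each side. By peak interval over the start, 2 of the 4 genes had a start peak in place of 3, while the share over coding genes went from 21.4% to 12%. No paired analysis was possible because there is 1 group and no test. Peak lists give no depth, so a gene without a peak may hold binding below the threshold.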
